A study of Homo sapiens with 11 samples.

Results

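The ligands and receptors of the tumor necrosis factor (TNF) superfamily were followed in RT4 cells, an established human line from a transitional cell papilloma of the bladder. Members were taken by symbol from the annotation of the array: every symbol that begins with TNFSF or TNFRSF, together with TNF, LTA, LTB, LTBR, FAS, FASLG, CD27, CD70, CD40, CD40LG, EDAR, EDA2R and NGFR. The rule found 45 genes, with 1 probe each, of the 14941 genes and 22464 probes on the array. They were 16 ligands, 8 receptors with a death domain, 3 decoy receptors, 16 other receptors and 2 antisense RNAs, TNFRSF10B-AS1 and TNFRSF14-AS1, which came in by their symbols. CD40LG, the ligand of CD40, was not listed for a probe and was not analysed here.

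The cells had been grown on plastic and then on Matrigel, a basement membrane extract that served as a cancer-remodeled extracellular matrix (crECM), layered as a gel on a membrane insert in McCoys medium with 10% fetal calf serum. Cy3-labeled cDNA of each culture was hybridized to its own array of long oligos, with 9 crECM arrays, 1 each at 12 h and at days 1, 2, 3, 4, 6, 7, 8 and 9, and 2 plastic arrays. All arrays hold the same line, with no agent added. The crECM arrays are time points, and the labels do not say whether the plastic arrays came from separate cultures, so p-values measure only the spread between these arrays. RNA was taken from whole cultures, so that fewer expressing cells and less RNA per cell cannot be told apart.

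Ligands of this family are trimers, made as membrane proteins and in part released by proteases, and most are known from T cells, B cells and myeloid cells. Their receptors carry cysteine-rich repeats outside the cell. Receptors with a death domain can assemble caspase-activating complexes, most others bind TRAF adaptors and activate NF-κB, and decoy receptors bind ligand without a full signal. In epithelial tissue such as the urothelium the receptors for TNF, FAS ligand, TRAIL, lymphotoxin and TWEAK are the better known members, and the receptors of B cells, BCMA, TACI and the BAFF receptor, are not counted among epithelial genes.

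Reference sequence upstream of the start site is shown for LTA, the ligand with the largest decrease, for TNF, its neighbor on chromosome 6, and for TNFSF11 and TNFSF13B, the ligands with the largest increases. The windows are 250 bases from RefSeq on GRCh38.p14, on the plus strand, and lie at chr6:31572039-31572288 for LTA, chr6:31575315-31575564 for TNF, chr13:42573902-42574151 for TNFSF11 and chr13:108269468-108269717 for TNFSF13B. Capitals mark matches on either strand to TATAAA, to the NF-κB consensus or to the AP-1 letters TGANTCA.
LTA: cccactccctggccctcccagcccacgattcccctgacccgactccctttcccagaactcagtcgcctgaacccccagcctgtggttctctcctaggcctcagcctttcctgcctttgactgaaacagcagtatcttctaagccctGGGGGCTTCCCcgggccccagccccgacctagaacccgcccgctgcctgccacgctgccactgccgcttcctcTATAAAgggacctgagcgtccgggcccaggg
TNF: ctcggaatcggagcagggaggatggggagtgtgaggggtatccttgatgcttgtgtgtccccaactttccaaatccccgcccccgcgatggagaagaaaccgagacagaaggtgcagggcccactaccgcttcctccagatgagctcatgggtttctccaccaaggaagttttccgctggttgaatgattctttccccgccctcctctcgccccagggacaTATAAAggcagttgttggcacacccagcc
TNFSF11: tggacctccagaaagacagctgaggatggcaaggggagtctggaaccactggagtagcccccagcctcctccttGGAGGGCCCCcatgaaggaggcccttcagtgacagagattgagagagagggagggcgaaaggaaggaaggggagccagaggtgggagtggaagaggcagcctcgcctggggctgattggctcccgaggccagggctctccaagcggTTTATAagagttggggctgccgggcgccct
TNFSF13B: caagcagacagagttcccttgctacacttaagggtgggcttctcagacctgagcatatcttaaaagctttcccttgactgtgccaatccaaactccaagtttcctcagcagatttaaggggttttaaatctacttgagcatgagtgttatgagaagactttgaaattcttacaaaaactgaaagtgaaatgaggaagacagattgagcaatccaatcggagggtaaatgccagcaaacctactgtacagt
The LTA window held 2 overlapping matches to the NF-κB consensus, from -104 to -95 and from -103 to -94 relative to the start, and TATAAA from -31 to -26. The TNFSF11 window held both on the opposite strand, the NF-κB match from -176 to -167 and TATAAA from -30 to -25. The TNF window held TATAAA from -29 to -24, and none of the 3 motifs was found in the TNFSF13B window. Windows were matched for 29 of the 45 members. The NF-κB consensus was in 8 of these 29 and in 6.62% of all 27305 gene windows, TATAAA in 6 of the 29 and in 11.4% of all, and TGANTCA in 5 of the 29 and in 6.89% of all. These matches describe the letters of the windows, and the arrays did not measure binding.

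Deposited values are SDs of the noise peak of each array above its zero point, after log10 and an adjustment between arrays by the authors, and are given here on the linear scale as noise SD. Raw values at or below the zero point share the lowest value of their array, and are called at the lowest value. A floor of 3 SD was used in the tests. The plastic arrays stood apart before any comparison. The median raw intensity was between 224 and 482 on the crECM arrays and was 162 and 140 on plastic. The low peak of the raw intensities had its mode between 30 and 64 on crECM and at 28.5 and 29.25 on plastic, and the raw intensity below which probes took the lowest deposited value was between 28.1 and 62.1 on crECM but 3.6 and 1.5 on plastic. A spot at the raw noise mode therefore had a deposited value of at most 0.301 noise SD on the crECM arrays and of 5.87 and 6.99 noise SD on the plastic arrays. Raw intensities are given beside the deposited values for this reason, as distance from the raw noise mode in raw noise SDs of the same array. Because 3 SD lies under the raw noise mode on plastic, and within 3 raw noise SDs of it on every crECM array, the size of a change whose lower group had an array at the floor depends on that floor and is no lower bound, and for called members it is given with a floor of 5 SD as well. Substrate and array handling cannot be told apart. Of the 45 members, between 36 and 40 lay above 3 raw noise SDs on the crECM arrays, against 19 (42.2%) and 14 (31.1%) on the plastic arrays. For all probes the shares were between 76.3% and 85.5% on crECM, and 53.1% and 44.5% on plastic. All 9 crECM arrays were above it for 33 members, against 70.5% of all probes, and both plastic arrays for 14, against 44%.

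**Figure D1:**
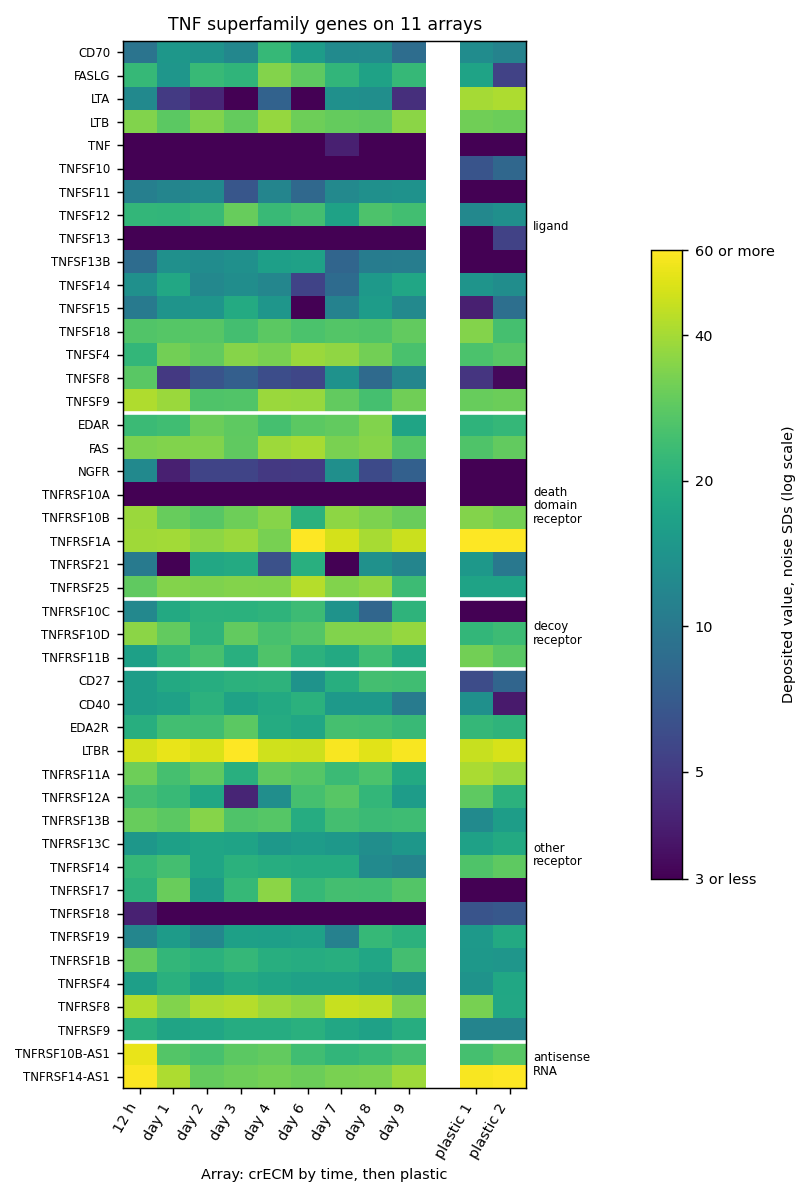
Deposited values of the 45 members (rows, grouped by role) on the 9 crECM arrays in order of time and the 2 plastic arrays (columns), colored by noise SD on a log scale from 3 or less to 60 or more. LTA was darker on every crECM array than on both plastic arrays, and at the dark end on days 3 and 6. TNFSF11, TNFSF13B, TNFRSF10C and TNFRSF17 were at the dark end on both plastic arrays alone, and TNFRSF10A on all 11.

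On crECM, 14 of the 42 members tested were higher than on plastic (33.3%) and 7 were lower (16.7%), by limma at an adjusted p under 0.05. Over all 21480 probes tested, 22.8% were higher and 22.4% were lower, 45.2% in all. At an unadjusted p under 0.05 the members numbered 22, against 52.6% of all probes. The median log2 change of the members was 0.12, against 0.06 for all probes. The higher members were TNFSF11, TNFSF13B, FASLG and TNFSF12 among the ligands, and TNFRSF17, TNFRSF10C, CD27, CD40, NGFR, TNFRSF25, TNFRSF13B, TNFRSF8, TNFRSF9 and TNFRSF1B among the receptors. The lower members were LTA, TNFSF10, TNFRSF18, TNFRSF11A, TNFRSF1A and TNFRSF11B, with the antisense RNA TNFRSF14-AS1. TNF, TNFRSF10A and TNFSF13 were not above 3 SD on enough arrays to be tested. Of the 14 members called higher, 13 had neither plastic array above 3 raw noise SDs and the remaining one, TNFRSF8, had 1. Of all 45 members, 26 had neither. The share among all probes called higher was not worked out, so the count is not shown to be particular to these members. Of the 7 called lower, 5 had both plastic arrays above it, and TNFSF10 and TNFRSF18 had none.

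**Figure D2:**
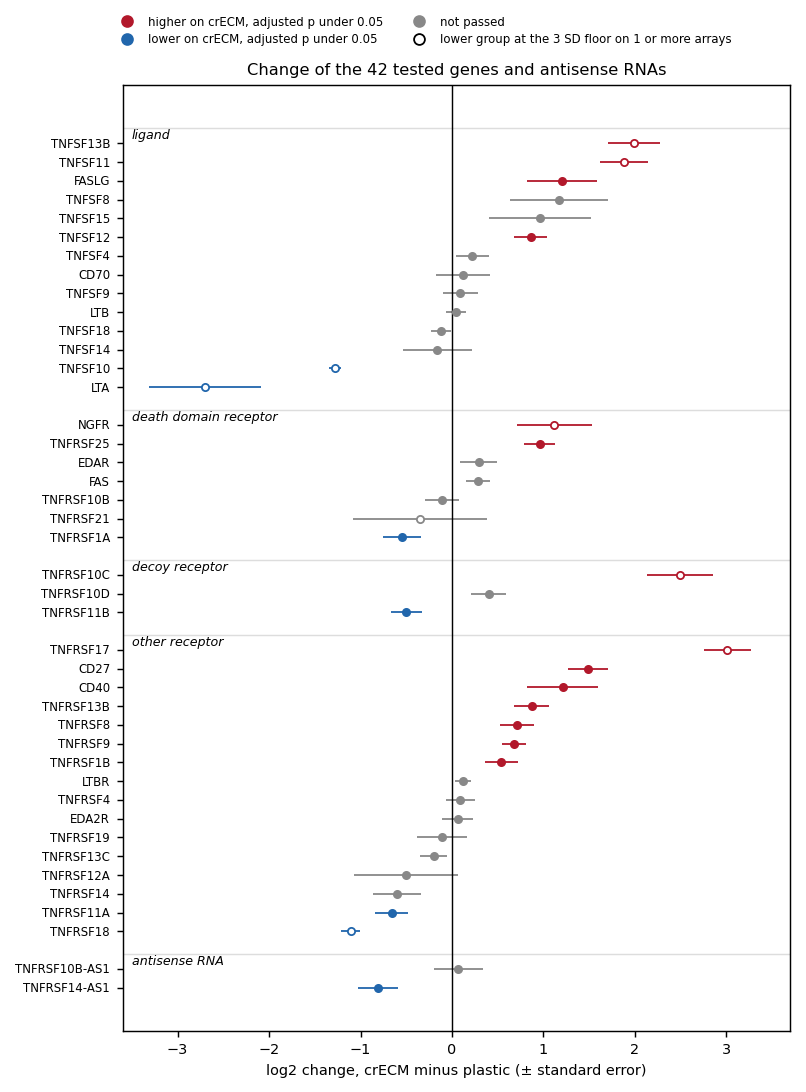
Log2 change of the 42 tested members (rows, by role), crECM minus plastic, with the standard error as bars and values under 3 SD set to 3 SD. Changes ran from -2.70 for LTA to 3.01 for TNFRSF17, and open symbols mark members whose lower group had an array at the floor, where the size of the change depends on the floor.

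Among the ligands, 4 of 14 tested were higher on crECM, 2 were lower and 8 did not pass, with a median log2 change of 0.17. LTA, the secreted lymphotoxin that signals through both TNF receptors, had the largest decrease of the family. Its deposited values on crECM were 12.5 noise SD at 12 h, 5.00 at day 1, 4.12 at day 2, 7.69 at day 4, 13.5 at day 7, 13.2 at day 8 and 4.51 at day 9, with days 3 and 6 at the lowest value, against 40.0 and 41.3 noise SD on plastic. Every crECM array lay below both plastic arrays, while the crECM arrays themselves moved up and down without an order in time. LTA was 6.51-fold lower on crECM with the 3 SD floor (log2 -2.70 ± 0.61 SE, adjusted p = 0.00382), and its log2 change was -2.49 with a floor of 5 SD and -1.70 in values rebuilt from the raw intensities. The raw intensities went the same way. They were between 22.7 and 246 on crECM, against 388 and 369.6 on plastic, although the crECM arrays were brighter as a whole. LTA was the 1 member of 45 whose raw intensities were all lower on crECM, which held for 1.08% of all probes.

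TNFSF11, or RANKL, the ligand that drives osteoclast formation, was one of the 4 members that met the criteria of the study for an "off-on" change, a mean log10 below 0 on plastic and above 1 on crECM. Its values were 10.9, 11.8, 12.5, 6.69, 11.8, 8.25, 12.2, 13.5 and 13.8 noise SD from 12 h to day 9 on crECM, against the lowest value and 2.81 noise SD on plastic. The mean log10 on plastic was below 0 through the first plastic array, at the lowest value, as the second was at 0.448. All crECM arrays were above both plastic arrays, and days 3 and 6 were the low ones. The change was 3.67-fold with the 3 SD floor (log2 1.88 ± 0.26 SE, adjusted p = 1.5e-04), and log2 1.14 with a floor of 5 SD, 0.94 in rebuilt values and 0.68 after quantile normalization. In raw noise SDs TNFSF11 stood between 3.14 and 8.25 above the mode on crECM, and at -1.22 and -0.445 on plastic.

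TNFSF13B, or BAFF, a survival factor of B cells, gave 8.61, 13.5, 12.8, 13.6, 16.3, 16.7, 7.96, 10.5 and 10.7 noise SD from 12 h to day 9 on crECM, against the lowest value on both plastic arrays. It was 3.98-fold higher on crECM with the 3 SD floor (log2 1.99 ± 0.28 SE, adjusted p = 1.7e-04), and log2 1.26 higher with a floor of 5 SD, 1.02 in rebuilt values and 0.79 after quantile normalization. The 12 h and day 7 arrays were the lowest on crECM, and these 2 were also below 3 raw noise SDs, at 2.43 and 2.55. TNFSF12, or TWEAK, whose receptor Fn14 is known from epithelial cells, lay between 16.9 and 30.0 noise SD on crECM with a median of 22.8, against 12.1 and 13.4 on plastic. The groups did not overlap, and the change was 1.82-fold (log2 0.86 ± 0.18 SE, adjusted p = 0.00218), but log2 0.41 with an adjusted p of 0.058 after quantile normalization. FASLG, the ligand of the death receptor FAS, lay between 14.4 and 34.6 noise SD on crECM with a median of 22.2, against 17.1 and 5.41 on plastic. The plastic arrays differed from each other here, and days 1 and 8 on crECM fell below the first plastic array. FASLG was called 2.29-fold higher (log2 1.20 ± 0.38 SE, adjusted p = 0.0248), but log2 0.36 with an adjusted p of 0.53 remained without the second plastic array, and 2.03 with 0.003 without the first.

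TNFSF10, or TRAIL, which kills many tumor lines through TRAIL receptors, was below 3 SD on all 9 crECM arrays, where 1.31 noise SD at day 7 was the highest value, against 6.52 and 8.17 noise SD on plastic. The call was 2.43-fold lower on crECM with the 3 SD floor (log2 -1.28 ± 0.07 SE, adjusted p = 4.6e-08) and log2 -0.55 with a floor of 5 SD, with a small error because a whole group was at the floor. In raw intensity TNFSF10 lay within 0.656 raw noise SDs of the mode on every array, from -0.0741 to 0.656 on crECM and at 0.103 and 0.154 on plastic. TNFSF10 was thus at the raw noise on all 11 arrays. TNF itself was under 3 SD on 10 of the 11 arrays, with 3.91 noise SD at day 7, 2.96 at 12 h and at most 1.02 on the other crECM arrays, against 0.745 noise SD and the lowest value on plastic. TNFSF13, or APRIL, reached at most 1.48 noise SD on crECM, against 1.57 and 5.41 on plastic. Neither was above 3 raw noise SDs on any array.

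LTB, which anchors lymphotoxin in the membrane, lay between 28.1 and 37.5 noise SD on crECM with a median of 31.0, against 31.4 and 30.6 on plastic, and did not pass (log2 0.04 ± 0.11 SE, adjusted p = 0.784). The other 7 ligands that did not pass were CD70, TNFSF4, TNFSF8, TNFSF9, TNFSF14, TNFSF15 and TNFSF18, with log2 changes from -0.16 for TNFSF14 to 1.17 for TNFSF8. TNFSF8, the CD30 ligand, had all crECM arrays, from 4.96 to 27.9 noise SD, above the plastic values of 4.79 and 3.19, yet missed the threshold (adjusted p = 0.101).

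**Figure D3:**
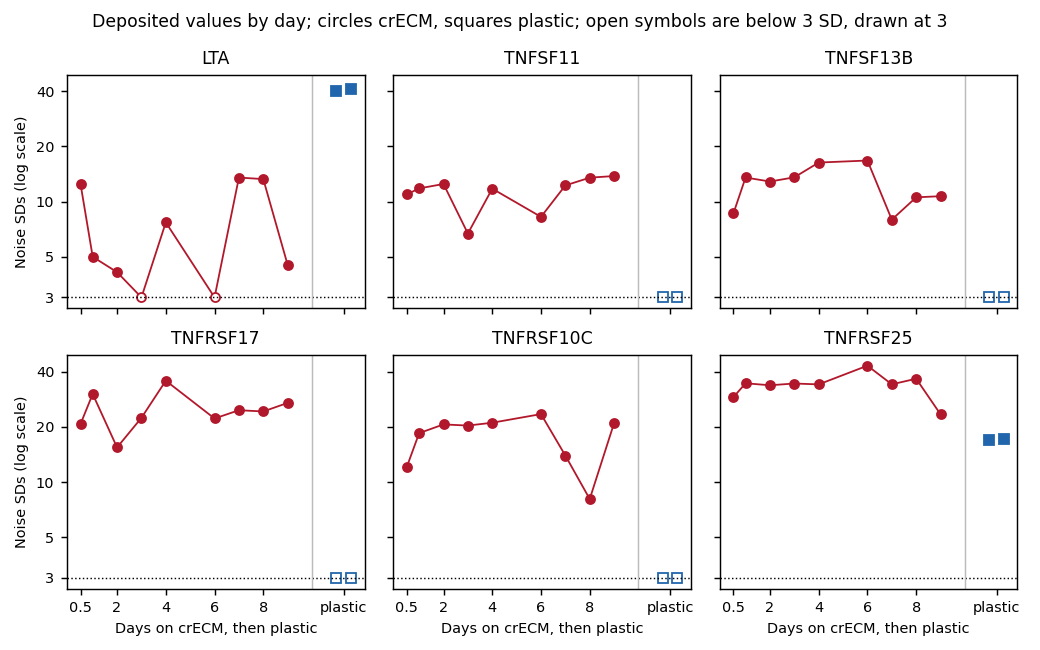
Deposited values in noise SD (log axis) of 6 members by day on crECM (circles) and on the 2 plastic arrays (squares), with the 3 SD floor dotted and values below it drawn open at 3. LTA was at 40.0 and 41.3 on plastic and at most 13.5 on crECM, while TNFSF11, TNFSF13B, TNFRSF17 and TNFRSF10C were open on both plastic arrays and filled at every time on crECM, and TNFRSF25 was at 17.0 and 17.1 on plastic and at least 23.4 on crECM.

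Of the 8 receptors with a death domain, 2 were higher on crECM, 1 was lower, 4 did not pass and TNFRSF10A was not tested. TNFRSF25, or death receptor 3, which binds the ligand TNFSF15, was called higher. Its values were 29.0, 34.6, 33.7, 34.5, 34.1, 43.1, 34.1, 36.6 and 23.4 noise SD from 12 h to day 9 on crECM, against 17.0 and 17.1 noise SD on plastic. Every crECM array was above both plastic arrays. The change was 1.95-fold (log2 0.96 ± 0.17 SE, adjusted p = 8.2e-04), and TNFRSF25 was called higher in all 14 alternatives, with log2 changes from 0.48 to 2.29. NGFR, the low-affinity neurotrophin receptor, lay between 3.93 and 13.3 noise SD on crECM with a median of 5.54, against 0.272 noise SD and the lowest value on plastic. It was 2.18-fold higher with the 3 SD floor at an adjusted p of 0.0434, close to the threshold. The call was lost without either plastic array (adjusted p = 0.19 and 0.21), with a floor of 5 SD (log2 0.43, adjusted p = 0.39), in rebuilt values (0.41, 0.24) and after quantile normalization (0.23, 0.58).

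TNFRSF1A, the main TNF receptor of epithelial cells, lay between 32.3 and 65.9 noise SD on crECM with a median of 39.8, against 59.9 and 64.5 on plastic. Day 6 on crECM was above both plastic arrays and the other 8 were below. TNFRSF1A was called 1.47-fold lower (log2 -0.55 ± 0.21 SE, adjusted p = 0.0468), and the call held in 3 of 14 alternatives, and not on leaving out the first plastic array (adjusted p = 0.14), the second (0.25) or the 12 h array (0.06). Without the regression between arrays its log2 change was 0.22, where the median of all probes was 1.25. FAS lay between 27.4 and 40.8 noise SD on crECM with a median of 33.9, against 26.2 and 29.3 on plastic, and did not pass (log2 0.28 ± 0.13 SE, adjusted p = 0.112). FAS was called higher in rebuilt values (log2 0.35, adjusted p = 0.012) and with raw intensities centred on the median of each array (0.68, 7.5e-04). The median of all probes was 0.25 in each of these. TNFRSF21, or death receptor 6, lay between 0.257 noise SD at day 7 and 19.9 at day 6 on crECM, against 14.9 and 9.95 on plastic, and did not pass (adjusted p = 0.713). EDAR, the ectodysplasin receptor, did not pass either (log2 0.29 ± 0.20 SE, adjusted p = 0.273).

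The receptors of TRAIL lie side by side on chromosome 8 and gave different values. TNFRSF10A was at the lowest value on all 11 arrays. TNFRSF10B, the other receptor that signals death, lay between 20.2 and 38.1 noise SD on crECM with a median of 31.0, against 34.3 and 32.2 on plastic, and did not pass (log2 -0.11 ± 0.19 SE, adjusted p = 0.662). TNFRSF10C, a decoy held to the membrane by a lipid anchor, gave 12.2, 18.5, 20.6, 20.3, 21.1, 23.5, 13.9, 8.08 and 21.0 noise SD from 12 h to day 9 on crECM, against the lowest value on both plastic arrays. It was low on both plastic arrays and above 3 SD on every crECM array, with day 8 the lowest of these. The change was 5.62-fold with the 3 SD floor (log2 2.49 ± 0.36 SE, adjusted p = 2.1e-04), and log2 1.75 with a floor of 5 SD, 1.38 in rebuilt values and 1.23 after quantile normalization. TNFRSF10D, the decoy with a cut-off death domain, lay between 21.0 and 37.5 noise SD on crECM with a median of 29.4, against 21.8 and 23.4 on plastic, and did not pass (log2 0.40 ± 0.19 SE, adjusted p = 0.108). Like FAS, it was called higher in rebuilt values (log2 0.46, adjusted p = 0.012) and in the centred raw intensities (0.94, 3.4e-04).

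The third decoy, TNFRSF11B or osteoprotegerin, binds RANKL, and TNFRSF11A or RANK is the signaling receptor of the same ligand. TNFRSF11B lay between 16.5 and 26.2 noise SD on crECM with a median of 20.6, against 31.9 and 27.8 on plastic, and was 1.42-fold lower (log2 -0.50 ± 0.17 SE, adjusted p = 0.0325). TNFRSF11A lay between 18.4 and 30.8 noise SD on crECM with a median of 25.8, against 41.1 and 37.9 on plastic, and was 1.58-fold lower (log2 -0.66 ± 0.18 SE, adjusted p = 0.0118). Both receptors were thus lower where the ligand TNFSF11 was higher, and neither overlapped between the groups. Both calls were lost without either plastic array, at adjusted p of 0.26 and 0.11 for TNFRSF11B and 0.11 and 0.076 for TNFRSF11A. Without the regression between arrays their log2 changes turned to 0.96 and 0.56, below the median of 1.25 of all probes, and their raw intensities overlapped between crECM and plastic.

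Of the 16 other receptors, 7 were higher on crECM, 2 were lower and 7 did not pass. TNFRSF17, or BCMA, the receptor of plasma cells for BAFF and APRIL, had the largest increase of the family. Its values were 20.7, 30.2, 15.4, 22.4, 35.7, 22.2, 24.6, 24.3 and 27.0 noise SD from 12 h to day 9 on crECM, against the lowest value on both plastic arrays. It was present at 12 h at a value within the range of the later days. The change was 8.04-fold with the 3 SD floor (log2 3.01 ± 0.26 SE, adjusted p = 2.6e-06), and log2 2.27 with a floor of 5 SD, 1.76 in rebuilt values and 1.72 after quantile normalization. In raw noise SDs TNFRSF17 stood between 6.17 and 16.5 above the mode on crECM, and at -0.935 and -0.919 on plastic. TNFRSF13B, or TACI, which binds the same ligands, lay between 19.3 and 34.7 noise SD on crECM with a median of 26.2, against 12.6 and 16.0 on plastic. It was 1.83-fold higher (log2 0.87 ± 0.19 SE, adjusted p = 0.00302), and without the first plastic array the adjusted p was 0.064. TNFRSF13C, the BAFF receptor, lay between 13.2 and 17.4 noise SD on crECM with a median of 14.9, against 16.7 and 18.6 on plastic, and did not pass (log2 -0.20 ± 0.15 SE, adjusted p = 0.314).

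CD27, the receptor of CD70 on lymphocytes, lay between 14.0 and 24.4 noise SD on crECM with a median of 19.5, against 6.02 and 8.00 on plastic. It was 2.8-fold higher (log2 1.49 ± 0.22 SE, adjusted p = 2.4e-04), and its plastic spots were at the raw noise mode, at 0.0251 and 0.13 raw noise SDs above it. CD40, a receptor of antigen-presenting cells that is also known from urothelial tumors, lay between 10.4 and 20.6 noise SD on crECM with a median of 16.7, against 13.4 and 3.72 on plastic. Day 9 on crECM fell between the plastic arrays. CD40 was called 2.31-fold higher (log2 1.21 ± 0.39 SE, adjusted p = 0.025), with log2 0.28 and an adjusted p of 0.59 without the second plastic array and 2.13 and 0.0013 without the first. TNFRSF1B, the TNF receptor of leukocytes, lay between 17.7 and 29.4 noise SD on crECM with a median of 20.4, against 14.9 and 14.5 on plastic. The groups did not overlap, the change was 1.46-fold (log2 0.54 ± 0.18 SE, adjusted p = 0.0255), and the adjusted p was 0.12 without the first plastic array and 0.17 without the second.

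TNFRSF8, or CD30, lay between 33.0 and 46.5 noise SD on crECM with a median of 41.4, against 32.6 and 18.1 on plastic. It was 1.64-fold higher (log2 0.71 ± 0.19 SE, adjusted p = 0.0101), and log2 0.29 with an adjusted p of 0.3 remained without the second plastic array, against 1.13 and 0.0015 without the first. TNFRSF9, or 4-1BB, lay between 16.7 and 20.0 noise SD on crECM, against 11.6 on both plastic arrays, and was 1.6-fold higher (log2 0.68 ± 0.13 SE, adjusted p = 0.00152), but log2 0.15 with an adjusted p of 0.4 after quantile normalization. Both are activation receptors of lymphocytes. TNFRSF18, or GITR, was below 3 SD on 8 of 9 crECM arrays, with 3.95 noise SD at 12 h and at most 1.55 later, against 6.53 and 6.86 noise SD on plastic. The call was 2.16-fold lower with the 3 SD floor (log2 -1.11 ± 0.10 SE, adjusted p = 4.0e-06), and log2 -0.42 with a floor of 5 SD. In raw intensity TNFRSF18 lay at 0.229 to 1.06 raw noise SDs above the mode on crECM, and at 0.106 and -0.0164 on plastic, so that it was at the raw noise on all 11 arrays like TNFSF10.

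LTBR, the lymphotoxin beta receptor of epithelial and stromal cells, lay between 47.5 and 59.5 noise SD on crECM with a median of 52.4, against 46.8 and 50.3 on plastic, and did not pass (log2 0.12 ± 0.09 SE, adjusted p = 0.306). TNFRSF12A, or Fn14, the receptor of TWEAK, lay between 4.11 noise SD at day 3 and 27.7 at day 7 on crECM with a median of 21.8, against 28.7 and 20.6 on plastic, and did not pass (log2 -0.50 ± 0.57 SE, adjusted p = 0.501). Fn14 was above 3 SD on every array, but on the second plastic array it lay at 2.31 raw noise SDs, within the raw noise. The 4 other receptors that did not pass were EDA2R, TNFRSF4, TNFRSF14 and TNFRSF19, with log2 changes from -0.60 for TNFRSF14 to 0.09 for TNFRSF4.

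**Figure D4:**
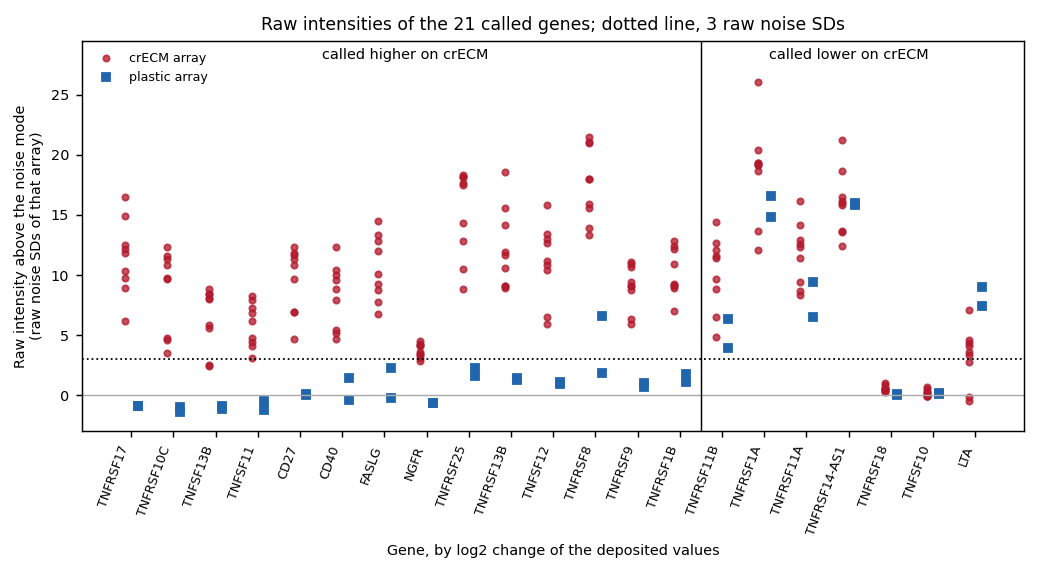
Raw intensities of the 21 members called higher or lower on crECM, in raw noise SDs above the noise mode of each array, for the 9 crECM arrays (circles) and the 2 plastic arrays (squares), with 3 raw noise SDs dotted. Of the 14 called higher, 13 had both plastic squares under the dotted line, TNFSF10 and TNFRSF18 lay near 0 on all arrays, and LTA was the member with all circles under both squares.

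All 9 crECM arrays were above both plastic arrays in the deposited values for 13 of the 45 members, against 21.5% of all probes, and below both for 8, against 25.3%. In the raw intensities the counts were 34 members above, against 54.8% of all probes, and 1 below, against 1.08%. TNFSF10, TNFRSF18 and TNFSF13 were below both plastic arrays in the deposited values on all crECM arrays and above both in raw intensity. The off-on members were TNFSF11, TNFSF13B, TNFRSF10C and TNFRSF17, 4 of 45 against 3.97% of all probes, and the opposite "on-off" change was met by LTA alone, 1 of 45 against 0.41%. LTA was above 3 SD on 7 of its 9 crECM arrays, and its mean log10 there was below 0 through days 3 and 6, which were at the lowest value. Of the 45 members, 42 reached a mean of 5 SD on plastic or crECM, against 89.6% of all probes, and 11 were hypervariable by a relative SD over the 11 arrays above 29.6% whichever array was left out, against 21.6%. These 11 were LTA, NGFR, TNFRSF10C, TNFRSF17, TNFRSF18, TNFRSF21, TNFSF10, TNFSF11, TNFSF13B, TNFSF15 and TNFSF8.

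Along the time on crECM few members moved. At 12 h against the 8 later arrays, 2 of 40 members tested were higher, both of them the antisense RNAs, and 0 were lower, by limma with the lone 12 h array assumed to vary like the others. There is no second array at 12 h, so its own spread is not known and these p-values rest on that assumption. Over all 19858 probes tested, 2.03% were higher and 2.33% lower, 4.36% in all. At an unadjusted p under 0.05 the members numbered 5, against 18.9% of all probes. TNFRSF10B-AS1, named as an antisense RNA of a TRAIL receptor gene, had 54.4 noise SD at 12 h, against 21.5 to 29.1 at the later times (log2 1.11 ± 0.17 SE, adjusted p = 0.00841). On plastic it had 24.9 and 27.5 noise SD, within the range of the later crECM arrays. TNFRSF14-AS1 had 59.0 noise SD at 12 h, against 29.7 to 41.7 later (log2 0.82 ± 0.18 SE, adjusted p = 0.0319), and 58.5 and 67.3 noise SD on plastic. It was 1.76-fold lower on crECM as a whole (log2 -0.81 ± 0.22 SE, adjusted p = 0.00998; without the second plastic array 0.12), and the 12 h array alone lay within the plastic range. The sense genes TNFRSF10B and TNFRSF14 were not called at 12 h. The strand that the probes read was not checked here, so that sense and antisense signal cannot be told apart.

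TNFSF8 stood at 27.9 noise SD at 12 h, against 4.96 to 13.8 later, and missed the threshold (log2 1.87 ± 0.52 SE, adjusted p = 0.0762). Without the day 7 array its adjusted p was 0.038 and 3 members were called. Over the days, 0 of 40 members had a slope past the threshold by limma, against 0.00504% of all probes, and 4 had an unadjusted p under 0.05, against 7.42%. The 12 h array had the lowest raw median on crECM, 224, and its part in these values was not tested.

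Ligands were then set beside the receptors they bind. Of 26 known pairs, both partners were called higher in 2, TNFSF13B with TNFRSF17 and TNFSF13B with TNFRSF13B, and both lower in 1, LTA with TNFRSF1A. They were called in opposite directions in 4 pairs, LTA with TNFRSF1B, TNFSF10 with TNFRSF10C, and TNFSF11 with TNFRSF11A and with TNFRSF11B. Of these, TNFSF10 was at the raw noise on all arrays. In 15 pairs 1 partner was called, and some of these had a partner that was not tested, TNF, TNFSF13 or TNFRSF10A. In 4 pairs neither was called. Over all probes tested, 22.8% were higher and 22.4% lower, and how often unrelated genes would pair this way was not tested. Genes that lie next to each other differed as well. On chromosome 6, LTA was lower beside TNF, which was at or near the noise, and LTB, which did not pass. On chromosome 8, TNFRSF10C was higher between TNFRSF10B and TNFRSF10D, which did not pass, and on chromosome 1 the neighbors TNFRSF8 and TNFRSF1B were both higher.

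The pathway inside the cell was read from 3 lists of other genes, whose shares stand beside 22.8% higher and 22.4% lower over all probes. Of 50 adaptors and NF-κB components tested, 8 were higher on crECM, 6 were lower and 36 did not pass, with a median log2 change of 0.11. The counts were 4 higher and 2 lower without the first plastic array, 3 and 1 without the second, and 15 and 1 in rebuilt values. RNF31, the catalytic subunit of the ligase that builds linear ubiquitin chains at the TNF receptor, averaged 14.6 noise SD on crECM and 3.52 on plastic, where 1 array was at the floor (log2 2.05 ± 0.20 SE, adjusted p = 9.1e-06). The log2 change of RNF31 was 1.54 with a floor of 5 SD, and 0.12 (adjusted p = 0.27) with raw intensities centred on the median of each array. SHARPIN, a subunit of the same ligase, averaged 33.2 noise SD on crECM and 17.1 on plastic (log2 0.96, adjusted p = 0.011), a call that was lost without the first (adjusted p = 0.11) or the second plastic array (0.054). TRAF6, the adaptor of RANK and CD40, averaged 23.6 on crECM and 7.5 on plastic (log2 1.65, adjusted p = 8.3e-05). It kept its call in the centred raw intensities (log2 0.62, adjusted p = 0.012), but not with a common floor of 23.82 noise SD (0.07, 0.52). BIRC2, a ubiquitin ligase that holds back TNF-driven death, averaged 18.3 noise SD on crECM and 30.6 on plastic (log2 -0.74, adjusted p = 0.0017). CFLAR, the inhibitor of caspase-8 at death receptors, and IKBKG, the regulatory subunit of the IKK complex, were under 3 SD on all crECM arrays, against means of 8.94 and 5.93 noise SD on plastic (log2 -1.58 and -0.98, or -0.84 and -0.25 with a floor of 5 SD). The plastic mean of IKBKG lies between the 5.87 and 6.99 noise SD that the raw noise mode took on plastic, and that of CFLAR is above these and under the 20.08 and 23.82 noise SD that 3 raw noise SDs took there. The plastic mean of RNF31 lies under the raw noise mode, and that of TRAF6 between the mode and 3 raw noise SDs.

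Of 33 genes known as targets of TNF and NF-κB, 5 were higher, 5 were lower and 23 did not pass, with a median log2 change of 0.17. The counts were 4 higher and 1 lower without the first plastic array, 2 and 1 without the second, and 9 and 2 in rebuilt values. CD83, a marker of mature dendritic cells, was at the floor on both plastic arrays and averaged 14.2 noise SD on crECM (log2 2.24, adjusted p = 0.0012). PTGS2, the inducible cyclooxygenase, averaged 33.5 noise SD on crECM and 18.3 on plastic (log2 0.87, adjusted p = 5.3e-05), and NFKBIZ, a nuclear IκB protein, 20.9 on crECM and 11.2 on plastic (log2 0.89, adjusted p = 0.0027, and 0.053 without the second plastic array). The cytokine IL1B averaged 40.1 noise SD on crECM and 60.5 on plastic (log2 -0.59, adjusted p = 0.0073), and the call was lost without the first (0.079) or the second plastic array (0.056). GADD45B, a stress-induced gene, averaged 20 on crECM and 31.3 on plastic (log2 -0.64, adjusted p = 0.0042, and 0.14 without the first plastic array). The protease MMP9 was under 3 SD on all crECM arrays, against a mean of 7.32 on plastic (log2 -1.29, or -0.55 with a floor of 5 SD). That mean lies close above the 5.87 and 6.99 noise SD of the raw noise mode on plastic, and under 3 raw noise SDs there.

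Of 14 genes for processing enzymes and related proteins, 8 were higher, 2 were lower and 4 did not pass, with a median log2 change of 0.59. The higher genes numbered 3 without the first plastic array, 2 without the second and 3 after quantile normalization, and the lower ones 1, 2 and 1. The list has TNFAIP1, C1QTNF4 and C1QTNF1 among the higher (log2 1.38, 1.23 and 1.01), and C1QTNF7 and ADAM17, the protease that sheds TNF, among the lower (log2 -0.74 and -0.62). The calls of C1QTNF4 (adjusted p = 0.057 and 0.068) and C1QTNF1 (0.26 and 0.07) were lost without the first or the second plastic array, and that of TNFAIP1 with a floor of 5 SD (log2 0.65, adjusted p = 0.068). ADAM17 was above 3 SD on 1 of 9 crECM arrays and 1 of 2 plastic arrays.

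Many members are known from blood cells, so markers of other cell types were read on the same arrays. The keratins KRT7, KRT18 and KRT19 averaged 264, 95.4 and 295 noise SD on crECM, against 185, 110 and 243 on plastic, and 12 of the 16 urothelial genes were above 3 SD on all crECM arrays, with KRT13 and UPK1B under 3 SD on all of them. The summed values of the list ranged from 668 to 1322 noise SD on crECM, against 846 and 801 on plastic. Of 15 urothelial genes tested, PSCA was higher (log2 2.10, adjusted p = 5.6e-04), KRT20 (-0.96, 2.5e-05), KRT13 (-0.89, 9.3e-05) and CDH1 (-1.11, 0.033) were lower, and 11 did not pass. PSCA was at the floor on both plastic arrays. KRT20 and KRT13 averaged 6.06 and 5.57 noise SD on plastic, where the raw noise mode took 5.87 and 6.99. On crECM 7 and 9 of their arrays were at the floor, so neither call was resolved from the raw noise. Of 30 lymphoid and myeloid markers tested, 9 were higher, 3 were lower and 18 did not pass. The sum over the 31 such genes ranged from 612 to 713 noise SD on crECM, against 527 and 500 on plastic, with 20 to 28 above 3 raw noise SDs on crECM and 14 and 12 on plastic. CD8A and CD5 were under 3 SD on all crECM arrays. CD3E averaged 32.5 noise SD on crECM and 5.2 on plastic, and PTPRC, the pan-leukocyte antigen, 28.5 on crECM and 33.3 on plastic. With CD3E, the higher markers were CD3D, CD7, CD8B, GNLY, ITGAX, MPO, NKG7 and PAX5, and the lower ones were CD4, CD8A and CD68. The plastic means of CD8A (5.49) and of the higher markers other than ITGAX (20.8) and MPO (24.5) lie under the raw noise mode on plastic. Of 15 fibroblast and endothelial genes, 4 were higher and 4 lower, and their sum ranged from 275 to 345 noise SD on crECM, against 296 and 303 on plastic. The labels name a single cell line, and the part of these signals in the values of the members was not tested.

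**Figure D5:**
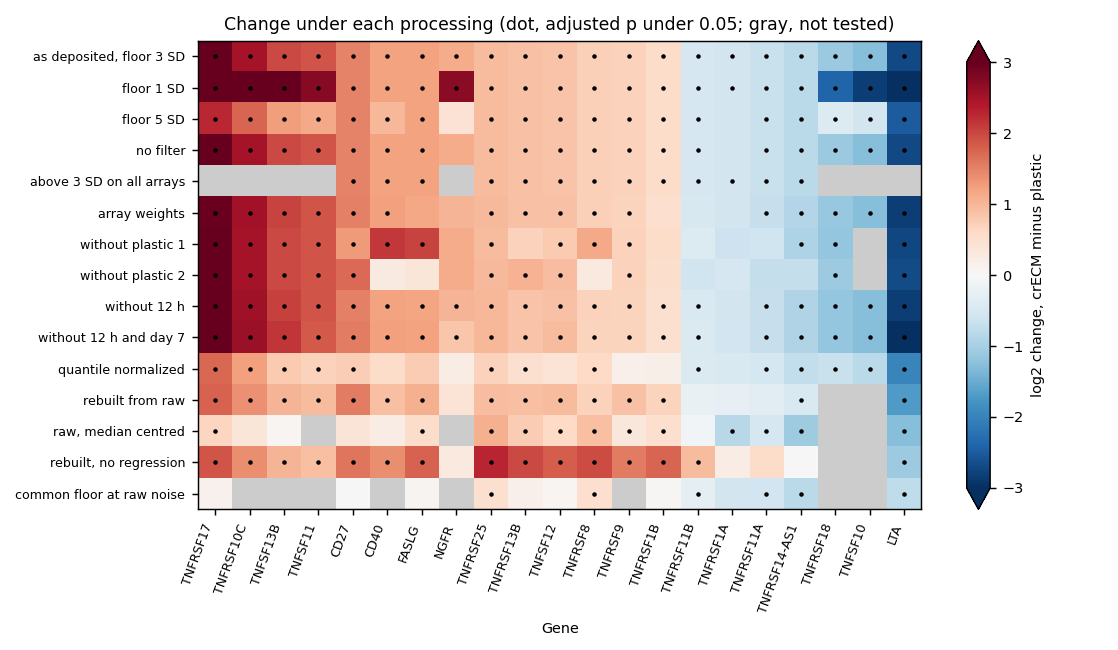
Log2 change, crECM minus plastic, of the 21 called members (columns) under 15 ways of processing (rows), from -3 in blue to 3 in red, with a dot for an adjusted p under 0.05 and gray where a member was not tested. LTA and TNFRSF25 kept their direction and their call in every row in which they were tested, whereas TNFRSF17 fell to 0.13 with a common floor at the raw noise.

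The calls differed in how far they depended on the low end of the plastic arrays. A common floor of 23.82 noise SD was the highest deposited value that 3 raw noise SDs took on any array. With it, 2 members were higher, TNFRSF25 (log2 0.48, adjusted p = 0.038) and TNFRSF8 (log2 0.51, adjusted p = 0.019), against 9.34% of 14073 probes. With the same floor 5 were lower, LTA among them (log2 -0.77, adjusted p = 7.7e-08), against 24%. All crECM values of LTA, at most 13.5, were set to this floor, so its size depends on the floor and its crECM group had no spread. Both plastic values of TNFRSF25, 17.0 and 17.1, and the second of TNFRSF8, 18.1, were set to the floor as well. TNFRSF17 was at log2 0.13 with this floor (adjusted p = 0.48), and TNFSF11, TNFSF13B and TNFRSF10C were not tested. CD40, NGFR, TNFRSF9, TNFSF10 and TNFRSF18 were not tested with it either. The members tested with it were not counted, so the 2 and 5 members cannot be read as shares beside those of all probes. With raw intensities centred on the median of each array, LTA was lower by log2 -1.28 (adjusted p = 2.0e-07) and TNFRSF17 higher by 0.65 (adjusted p = 0.02), while TNFRSF10C (0.36) and TNFSF13B (0.07) did not pass. LTA was called lower in all 13 alternatives in which it was tested, with log2 changes from -3.06 to -0.77. TNFSF11 was called higher in all 11 in which it was tested, with log2 changes from 0.68 to 2.72. It was not tested in 3, among them the common floor and the centred raw intensities. TNFSF10 and TNFRSF18, at the raw noise on all arrays, also kept their calls wherever they were tested. Such counts therefore do not show that a call is clear of the raw noise.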

How the data were processed

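Total RNA of RT4 cells on crECM (9 arrays) and on plastic (2 arrays) had been copied to Cy3 cDNA for spotted arrays of long oligos. The authors deposited a raw intensity for each probe and array, without scaling between arrays. The log10 values deposited by the authors are distances from the zero point in SDs of the noise, brought to a common scale with a robust regression. The scanner and the image software are not given in the sources used here. The members and the gene lists were chosen with earlier results of these data known.

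Tests were made on log2 of the deposited values with a floor of 3 SD, for probes above 3 SD on at least 2 arrays, with limma 3.58.1 (eBayes with a trend) in R 4.3.3 and Benjamini-Hochberg adjustment over all probes tested. The fit was tested on simulated data. Where all arrays of a group were at the floor, standard errors are small. Raw noise was located at the highest density of the low intensities, with the SD of its lower side, which includes a smaller peak near 0. The number of arrays limits the precision. One gene symbol was listed for 17043 probes, several for 172 and none for 5249. Values on every array, or their range and median, are given for LTA, TNFSF11, TNFSF13B and TNFRSF17, for off-on and on-off members, for the 10 largest changes without overlap in each direction, and for a list of TNF, lymphotoxin, FAS, TRAIL, RANK, BAFF, TWEAK and CD40 pathway members, and of each other list up to 3 genes in each direction are named. TNFRSF9 and the genes of the marker lists, and of the members that did not pass, TNFSF8, were named after their values were seen. Alternatives were other floors and filters, array weights, values rebuilt from the raw intensities with and without regression, quantile normalization and left-out arrays. Promoter windows came from RefSeq on GRCh38.p14, at the most downstream start listed.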

Additional observations from a re-analysis of the deposited data

Results flagged for a closer look

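Among the 42 members whose 9 crECM arrays could be examined for a single distant array, 7 had one by Dixon's criterion. Values under 3 SD were set to 3 SD for this, although the values below are given as deposited. Chance gives about 1 in 20 groups, or 2.1, a rate that does not hold for values at the floor. TNF and TNFRSF18 were flagged because a single crECM array lay above the floor. At 12 h, TNFRSF10B-AS1 had 54.4 noise SD, against 21.5 to 29.1 on the other crECM arrays, TNFRSF14-AS1 had 59.0, against 29.7 to 41.7, and TNFRSF18 had 3.95, against 0.236 to 1.55. At day 3, TNFRSF12A, the TWEAK receptor, had 4.11 noise SD, against 13.2 to 27.7. At day 6, TNFSF15, the ligand of TNFRSF25, had 2.84 noise SD, against 10.2 to 18.8. At day 7, TNF had 3.91 noise SD, and all other crECM arrays were at or below 2.96. At day 9, CD40 had 10.4 noise SD, against 15 to 20.6. Of these 7 arrays, 3 were the 12 h array. The distant values of TNF and TNFRSF18 lie under 3 raw noise SDs, at 1.14 and 1.06, and that of TNFSF15 at 1.78.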

How the results depend on the processing

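The number of members called higher on crECM, 14 in the main comparison, was 9 with probes above 3 SD on all 11 arrays. It was 2 with a common floor at the raw noise, 8 after quantile normalization and 33 with values rebuilt without regression. Without the first plastic array it was 11, without the second 9 and without the 12 h array 14. The later crECM arrays were not left out one by one. The number called lower, 7, was 4 with probes above 3 SD on all arrays, 4 with raw intensities centred on the median, 2 with values rebuilt from the raw intensities, 1 when these were not regressed, and between 2 and 6 with 1 array left out, 3 without the first and 2 without the second plastic array. Of the 2 members higher at 12 h, 1 was left after quantile normalization and 1 in the rebuilt values. The 4 off-on members became 0 in rebuilt and 0 in quantile normalized values and 1 when every array had to pass, and the 1 on-off member became 0 in rebuilt values and 0 when every array had to pass. Hypervariable members numbered 6 on the 9 crECM arrays alone, against 11.

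Without regression, which moved the median log2 change of all probes to 1.25, the sign turned for TNFRSF11A (0.56), TNFRSF11B (0.96), TNFRSF1A (0.22), TNFRSF10B (1.22), TNFRSF12A (1.08), TNFRSF13C (1.31), TNFRSF21 (0.89), BIRC2 (0.75), GADD45B (0.80), IL1B (0.20) and C1QTNF7 (0.28). With raw intensities centred on the median, where the median was 0.25, it turned for LTBR (-0.02), TNFRSF10B (0.16), TNFRSF12A (0.17), TNFRSF13C (0.15) and TNFRSF21 (0.14), and in rebuilt values, at a median of 0.25, for TNFRSF10B (0.06), TNFRSF13C (0.07) and TNFRSF21 (0.27). The causes were not tested, except that a filter on all arrays, or the common floor, leaves fewer genes tested. The common floor, the centred raw intensities and the set without the 12 h and day 7 arrays were chosen after seeing the data. No paired analysis was possible because the crECM time points carry no replicate number shared with the plastic arrays. Among the list genes, the choice of probe applied to few, and no member had a second probe. Deposited values on plastic under 20.08 and 23.82 noise SD lie within 3 raw noise SDs, so that members and list genes below these values on plastic were not resolved from the raw noise there.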
